A study of Mus musculus with 2 samples.

Results

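Regulatory T cells were examined as the barcodes in which the transcript of Foxp3, the transcription factor that defines the lineage, was read together with a CD3 chain. A barcode, the tag that stands for 1 captured cell, was a member if it held at least 1000 unique molecular identifiers (UMIs, each standing for 1 captured mRNA molecule) and at least 1 UMI of Foxp3 and 1 of Cd3e, Cd3d and Cd3g together. It could hold at most 1 UMI of Cd8a and Cd8b1 together and at most 1 of Csf1r, Adgre1 and Fcgr1 together, which are genes of mononuclear phagocytes. Of 11246 barcodes, 296 met the rule. They were 128 of 5253 barcodes in the vector control library and 168 of 5993 in the TMEM16F KO library.

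The cells came from tumours that grew in mice engrafted with MC38, a line of mouse colorectal cancer, and were taken at day 21. The engrafted line carried either the vector control or a knockout of TMEM16F, a calcium-activated phospholipid scramblase encoded by Ano6, and the mice had no further treatment. The alteration is that of the engrafted line, and nothing in the labels says that the host's T cells carry it. There was 1 library per group, and the sources used here give neither how many mice or tumours went into it nor whether the knockout line was 1 clone. A difference between the groups therefore cannot be told apart from a difference between these libraries, and no test was made. Intervals are 95% intervals and cover counting error only.

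Regulatory T cells are CD4 T cells that restrain other lymphocytes. They do so by taking up interleukin 2 through the high-affinity receptor chain CD25, the product of Il2ra, by removing costimulatory ligands through CTLA-4, and by secreting cytokines such as interleukin 10. In tumours and other tissues they often take on an effector state marked by the receptors KLRG1, CCR8 and ST2, the TNF receptor family members OX40, GITR and 4-1BB, and the growth factor amphiregulin, whereas CCR7, LEF1 and TCF1 mark the less differentiated, recirculating state.

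Members had similar depth in both libraries, with a median of 3983 UMIs (lowest 1293, highest 46759) in the vector control and 3945 UMIs (lowest 1401, highest 38587) in the TMEM16F KO library. Their summed UMIs were 793368 and 943729. Foxp3 was read at 1 UMI in 66 of 128 vector control members (51.6%) and in 90 of 168 TMEM16F KO members (53.6%), so that membership often rested on a single molecule. A UMI of Cd4 was seen in 56 and 71 members. Of the other 3 defining markers, Il2ra, Ikzf2 (Helios, a transcription factor of stable regulatory T cells) and Ctla4, at least 1 was read in all but 4 vector control and 3 TMEM16F KO members, and all 3 were read in 64 (50%) and 72 (42.9%). The label was therefore not at odds with the markers that the rule did not use.

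Members made up 8.57% of T cell barcodes (95% Clopper-Pearson interval 7.20 to 10.1; 128 of 1493) in the vector control library and 8.70% (7.48 to 10.0; 168 of 1932) in the TMEM16F KO library. T cell barcodes here had at least 1000 UMIs, a CD3 UMI and at most 1 phagocyte UMI. The ratio of these shares was 1.01 (0.801 to 1.29). Over all barcodes with at least 1000 UMIs the shares were 2.68% and 2.97%, a ratio of 1.11 (0.874 to 1.40). Both intervals include equal shares and also differences between the bounds given, which could not be resolved with this number of cells.

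The values on either side of the rule describe how sharp it was. Members with exactly 1 Foxp3 UMI had Ikzf2 at 656 CPM in the vector control library (CPM are the UMIs of a gene over all UMIs of a class, scaled to 1000000), whereas barcodes with a Cd4 UMI and no Foxp3 UMI had 299 CPM. In the TMEM16F KO library these values were 563 and 298 CPM. For Ctla4 they were 860 against 476 CPM and 864 against 616 CPM. The group without Foxp3 UMIs was therefore lower in these markers but not free of them. At this depth it can hold regulatory T cells whose Foxp3 mRNA was not captured. The cut on CD8 genes left out 13 vector control and 35 TMEM16F KO barcodes with a Foxp3 UMI, and the cut on phagocyte genes left out 43 and 47. The left-out barcodes were deeper than the members, with medians of 13328 and 10886 UMIs for those with CD8 UMIs and of 15978 and 12714 UMIs for those with phagocyte UMIs. Members with 1 UMI of a CD8 gene, just inside that cut, had Ctla4 at 862 CPM (11 cells) and 686 CPM (15 cells).

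To compare the share of cells with a UMI across classes of different depth, each cell was thinned to 1000 UMIs and the share expected over all such draws was computed. Conventional CD4 T cells were barcodes with a Cd4 UMI, no Foxp3 UMI and the same limits otherwise (85 and 122 cells), CD8 T cells had at least 2 CD8 UMIs and no Foxp3 UMI (721 and 951), and macrophage-type cells had at least 3 phagocyte UMIs and no CD3 UMI (1161 and 1272). Median depths before thinning were 4087 and 3610.5 UMIs in the CD4 class, 6817 and 5838 in the CD8 class and 12061 and 10010.5 in the macrophage-type class. The last class should lack T cell genes and serves as a rough guide to free RNA. Because its rule asks for no CD3 UMI and its cells are deeper, it can understate that background in the members.

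Ctla4 had an expected share of 54.7% of vector control and 51.9% of TMEM16F KO members at 1000 UMIs, against 0.9% and 1.0% of macrophage-type cells. Without thinning its share was 78.1% (70.0 to 84.9) and 77.4% (70.3 to 83.5) of members. Il2ra had expected shares of 36.3% and 33.0% and Ikzf2 of 45.8% and 37.2%, both against under 1% in macrophage-type cells. All 3 markers stood far above their shares in macrophage-type cells in both libraries. OX40 (Tnfrsf4), a costimulatory receptor, was the most widely read of the surface receptors listed here, with 72.9% and 80.3% of members, against 50.6% and 45.6% of conventional CD4 T cells and 11.5% and 12.3% of CD8 T cells. The effector receptor gene Klrg1 had 28.7% and 23.0% of members, 13.4% and 6.3% of conventional CD4 T cells and under 1% of CD8 T cells. Conversely, Cd40lg, which encodes the helper ligand CD154, had under 1% of members and 7.5% and 9.7% of conventional CD4 T cells.

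**Figure D1:**
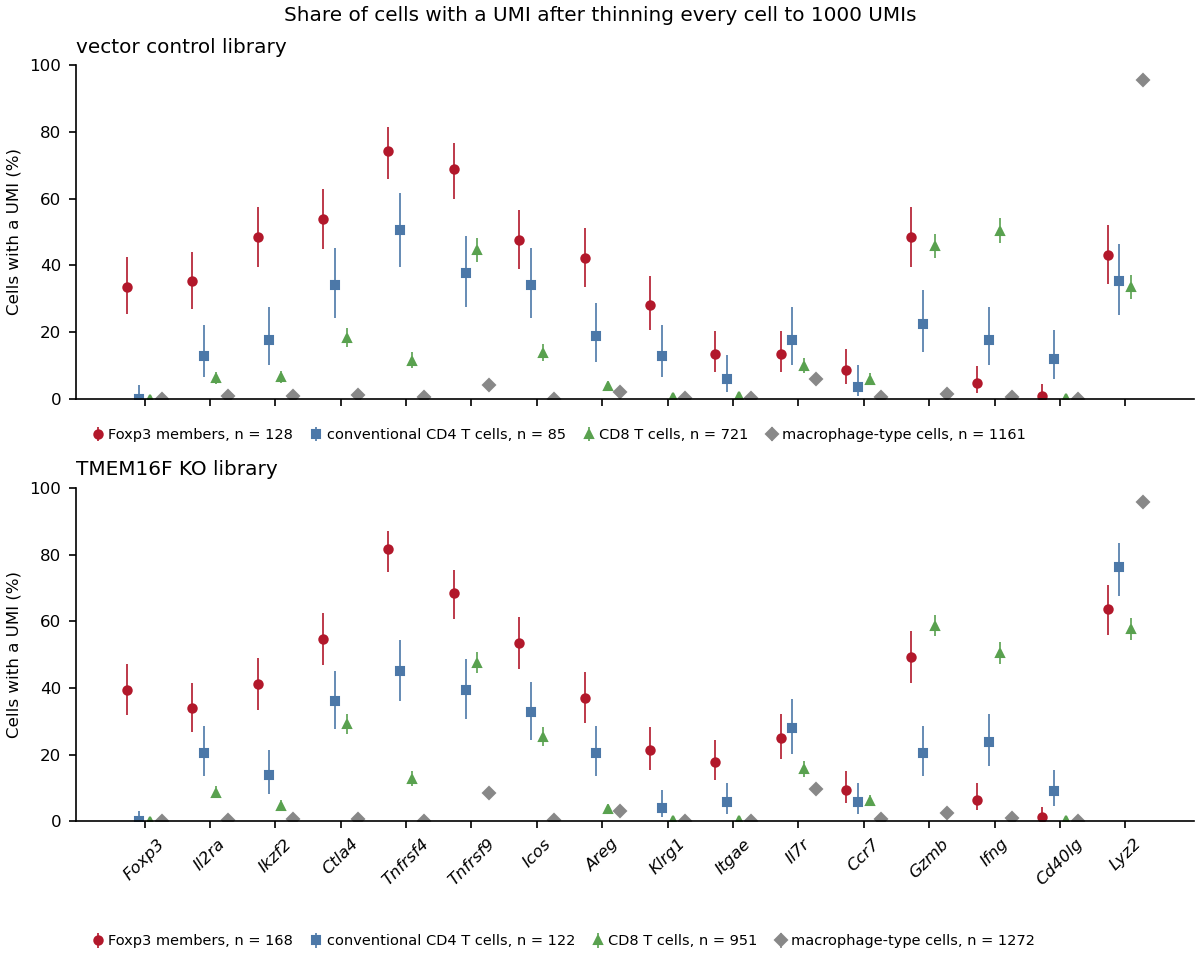
Share of cells with at least 1 UMI of each gene (vertical axis, percent) in 1 draw of 1000 UMIs per cell, by class, for the vector control library (top) and the TMEM16F KO library (bottom). Points are shares and bars 95% Clopper-Pearson intervals; Foxp3 members (red) lie highest for Il2ra, Ikzf2, Ctla4, Tnfrsf4, Areg, Klrg1 and Itgae, and low for Ifng and Cd40lg.

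Members were then set against conventional CD4 T cells within each library. This is a description, since the rule chose the members. Of 4083 genes with at least 100 UMIs, 26 (0.637%) were at least 2-fold higher in members in both libraries and 40 (0.98%) at least 2-fold lower in both. Foxp3 led by construction. Klrg1 stood at 384 against 112 CPM in the vector control library and at 247 against 76.6 CPM in the TMEM16F KO library, ratios of 3.45 (2.64 to 4.55) and 3.22 (2.33 to 4.56). Areg, the gene of amphiregulin, an epidermal growth factor receptor ligand linked to tissue repair, stood at 1365 against 604 CPM and at 1141 against 487 CPM. Its ratios were 2.26 (2.01 to 2.55) and 2.34 (2.05 to 2.68). In both libraries both genes of the tissue effector state were higher in the members than in the other CD4 T cells.

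Other regulatory T cell genes were divided, some higher in members and some not. Itgae, the integrin chain CD103, had ratios of 4.23 and 2.09. Ikzf4 (Eos, a partner of Foxp3 in repression) had 2.71 and 2.5, and Tigit, an inhibitory receptor for CD155, had 3.54 and 2.38. Tnfrsf13b, the receptor TACI, had 3.90 and 2.61. Among the list of 15 measured identity genes, 4 (Foxp3, Ikzf4, Itgae and Lrrc32, which encodes the TGF-beta carrier GARP) were past 2-fold higher in both libraries and 1, Nrp1 (neuropilin 1), was past 2-fold lower, at 16.4 against 49.2 CPM and 18.0 against 99.2 CPM. Il10 was at nearly the same level in both classes, with ratios of 1.19 (0.917 to 1.56) and 1.00 (0.783 to 1.29), and so was Ccr8, with 0.985 (0.605 to 1.62) and 1.17 (0.715 to 1.96). Other genes that the naming rule gave were Slc36a3os, Frmd5, Gbp3, Cdkn2c, Arl5a, Glrx, Neb and Gzmf, of which Gzmf rested on few cells.

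Helper cytokine genes were lower in members. Interferon gamma mRNA (Ifng) stood at 58.0 against 485 CPM in the vector control and at 73.1 against 529 CPM in the TMEM16F KO library. Il2, whose product regulatory T cells consume rather than make, was read as 1 UMI in the members of each library, against 25 and 81 UMIs in the conventional CD4 T cells, where the 81 UMIs sat in 1 cell. Ccl1, a ligand of CCR8, stood at 3.78 against 262 CPM and at 7.42 against 479 CPM. Tnfsf11 (RANKL) stood at 11.3 against 182 CPM and at 18.0 against 338 CPM, and Cd40lg at 5.04 against 68.9 and at 2.12 against 95.7 CPM. Of the 12 measured helper lineage and cytokine genes, 5 were past 2-fold lower in both libraries and none was past 2-fold higher. Lower in both were also Calca, Lgals7, Serpinb1a, Slpi and Tnfsf8. At 1000 UMIs per cell 10 genes were past 2-fold each way. Thinning leaves fewer genes with at least 100 UMIs, by construction, so these counts cannot be set against those without thinning.

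Between the libraries, the level of Foxp3 (ENSMUSG00000039521; chromosome X, 7573644 to 7595245, plus strand, GRCm38 with GENCODE M21, as all positions here) was 323 CPM in the vector control and 317 CPM in the TMEM16F KO members, a ratio of 0.982 (0.828 to 1.16). Since the rule asks for Foxp3, its level is a description. Ratios below are those of the TMEM16F KO over the vector control library. Of 2698 genes with at least 100 UMIs over the members of both libraries, 100 (3.71%) were more than 1.5-fold higher in the TMEM16F KO library and 60 (2.22%) more than 1.5-fold lower. The median log2 ratio over these genes was -0.02. Lists were summarised over genes with at least 20 UMIs, where the noise of low counts is larger: of 7250 such genes, 737 (10.2%) were past 1.5-fold higher and 713 (9.83%) past 1.5-fold lower, with a median log2 ratio of -0.01. Each list's count in the members is to be read beside these 2 shares.

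Identity genes had a median log2 ratio of -0.02 over 15 measured members, of which 0 were past 1.5-fold higher and 2 past 1.5-fold lower. The share lower was near the 9.83% of all genes with at least 20 UMIs. Il2ra stood at 420 and 415 CPM (0.990; 0.853 to 1.15) and Tnfrsf18, the gene of GITR, at 1015 and 1016 CPM (1.00; 0.911 to 1.10). Ctla4 stood at 1158 and 981 CPM (0.847; 0.772 to 0.929). These levels lay close together in the 2 libraries.

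Helios mRNA was the exception among the defining markers. Ikzf2 (ENSMUSG00000025997; chromosome 1, 69531214 to 69687245, minus strand) stood at 962 CPM in the vector control and at 594 CPM in the TMEM16F KO members, a ratio of 0.618 (0.553 to 0.690). It was read in 99 of 128 and in 125 of 168 members, so the lower level went with fewer UMIs per positive cell more than with fewer positive cells. Its ratio stayed between 0.504 and 0.638 under all 13 alternative settings and was 0.622 without the highest cell of each library. In conventional CD4 T cells the ratio was 0.997 and in CD8 T cells 0.752, side by side without a test of the difference. Ikzf4, its relative in the Ikaros family, was lower as well, at 75.6 and 43.4 CPM (0.574; 0.376 to 0.869).

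**Figure D2:**
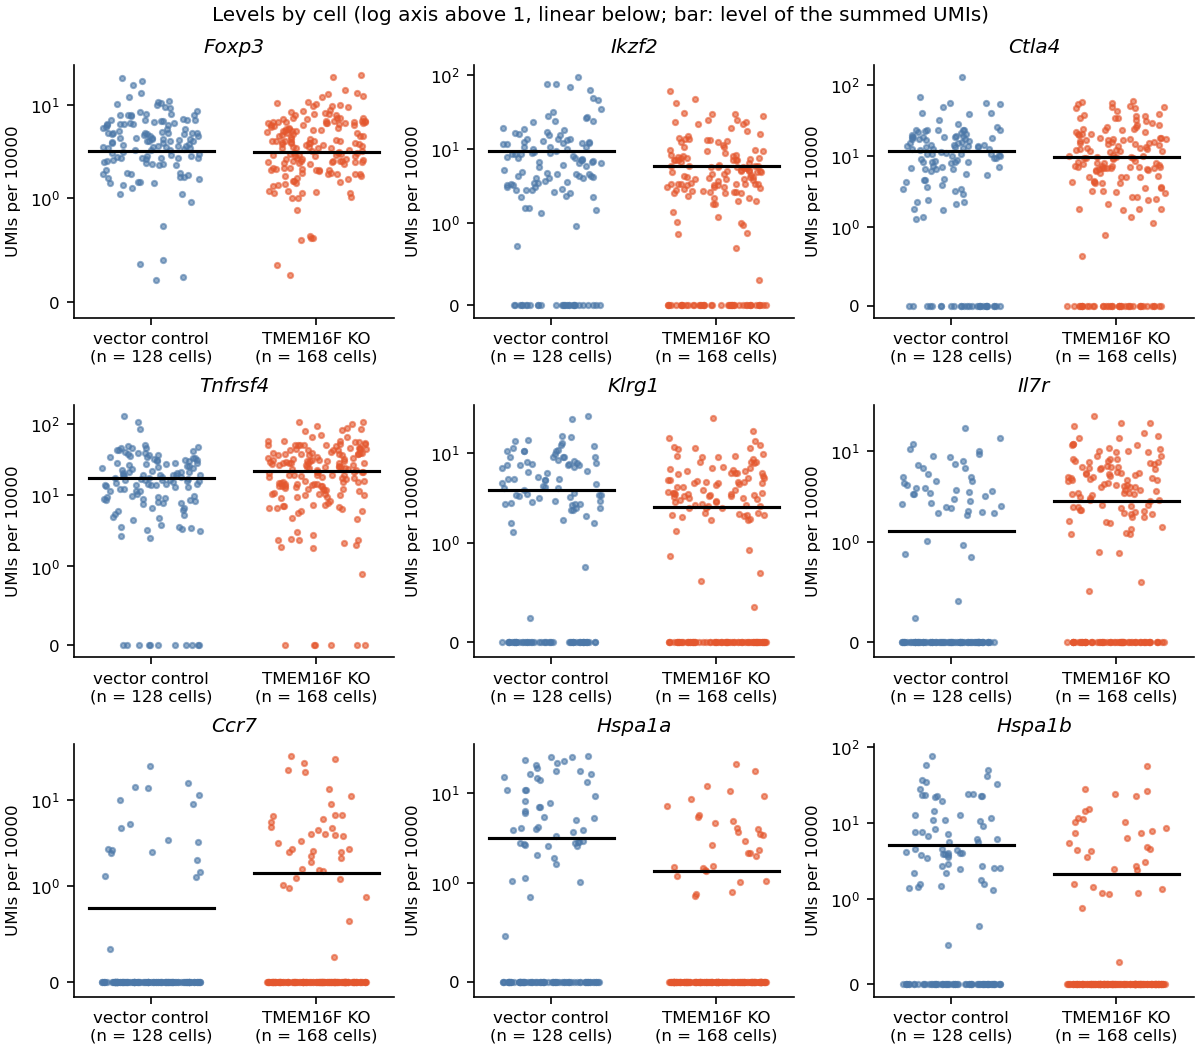
UMIs per 10000 UMIs of the cell (vertical axis, log above 1 and linear below) for 9 genes, with 1 point for each of the 128 vector control (blue) and 168 TMEM16F KO (orange) members and a bar at the level of the summed UMIs. The bars of Ikzf2, Klrg1, Hspa1a and Hspa1b are lower and those of Il7r and Ccr7 higher in the TMEM16F KO library, while the cells of both libraries overlap for every gene.

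The largest ratio among well-measured receptors of the naive and central list was that of Il7r, the interleukin 7 receptor chain CD127, which regulatory T cells usually carry at low level. Il7r (ENSMUSG00000003882; chromosome 15, 9505788 to 9530176, minus strand) stood at 131 CPM in the vector control and 284 CPM in the TMEM16F KO members, a ratio of 2.17 (1.72 to 2.74). It was read in 47 of 128 members (36.7%; 28.4 to 45.7) and in 103 of 168 (61.3%; 53.5 to 68.7). At 1000 UMIs the expected shares were 14.1% and 27.3%. Its ratio was 1.56 to 2.45 over the 13 settings. Macrophage-type cells also held Il7r, at 65.0 and 134.8 CPM, and the part of their free RNA in the members' ratio was not tested. The ratio was 2.80 in conventional CD4 T cells and 1.59 in CD8 T cells.

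Several other genes of recirculating T cells stood higher in the same library. Ccr7, the receptor that guides cells to lymph nodes, was at 76.9 and 143 CPM (1.86; 1.37 to 2.56). In macrophage-type cells it was at 12.8 CPM in both libraries. Mature dendritic cells also carry Ccr7, and dendritic cell markers summed to 33 and 171 UMIs in the members, a part that was not tested. Ccr7 was read in 20 and 40 members, with up to 14 and 26 UMIs in 1 cell, and its ratio was 1.95 without the highest cell of each library. Lef1 was at 16.4 and 33.9 CPM (2.07; 1.06 to 4.30). Tcf7, the gene of TCF1, was read as 0 UMIs in the vector control and as 19 UMIs in 10 TMEM16F KO members. With the 0 set at a floor of 3 UMIs its ratio was 5.32, which is not a lower bound. Over the whole list, 3 of 9 measured genes (Il7r, Ccr7 and Lef1) were past 1.5-fold higher and 0 lower. Among all genes with at least 20 UMIs the shares were 10.2% and 9.83%. The list's median log2 ratio was 0.27. Without barcodes of more than 20000 UMIs that median was 0.56. Tcf7 was left out of that count because it fell just short of 20 UMIs. Satb1 and Foxp1 were not higher, with ratios of 0.765 and 0.983. Without cycling members the ratio of Ccr7 was 1.37. Higher values stood in the other T cell classes too. The list's median log2 ratio was 0.83 in conventional CD4 T cells, with 5 of 9 measured genes past 1.5-fold higher. In CD8 T cells it was 0.56, with 5 of 11.

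Among genes of the tissue effector state, Klrg1 was lower in the TMEM16F KO members. Klrg1 (ENSMUSG00000030114; chromosome 6, 122270596 to 122282882, minus strand) stood at 384 and 247 CPM, a ratio of 0.642 (0.539 to 0.764), and was read in 77 of 128 and 94 of 168 members. The ratio was below 1 in all 13 settings and past 1.5-fold in 9 of them. It was 0.845 among members with no CD8 and no phagocyte UMI. In conventional CD4 T cells the ratio of Klrg1 was 0.687 (0.459 to 1.02), and in CD8 T cells 2.76, from 18 and 57 UMIs. In the members Areg was at 1365 and 1141 CPM (0.836; 0.768 to 0.910). Rora, a nuclear receptor of tissue regulatory T cells, was at 449 and 365 CPM (0.812; 0.698 to 0.945). The whole list had a median log2 ratio of -0.18, with 2 of 16 measured genes (Klrg1 and Ikzf2) past 1.5-fold lower and 0 higher, a share near the 9.83% of all genes with at least 20 UMIs. Ccr8, Batf, Irf4 and Il1rl1 (ST2) had ratios of 1.03, 0.885, 1.15 and 0.809, with intervals that included 1. Penk, the gene of proenkephalin, was at 476 and 424 CPM, yet only 25 and 31 members held a UMI of it and the highest cells held 59 and 74 UMIs.

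Each member was also sorted by whether it held UMIs of these genes. A Klrg1 UMI was read in 60.2% (51.1 to 68.7) of vector control and 56.0% (48.1 to 63.6) of TMEM16F KO members, so the share with Klrg1 was close to equal. Members with a Klrg1 UMI and none of Ccr7, Lef1 or Tcf7 were 65 of 128 (50.8%; 41.8 to 59.7) in the vector control and 57 of 168 (33.9%; 26.8 to 41.6) in the TMEM16F KO library. Members with any of the latter genes and no Klrg1 were 13 (10.2%; 5.52 to 16.7) and 24 (14.3%; 9.37 to 20.5). Both kinds of UMI stood together in 12 (9.38%; 4.94 to 15.8) and 37 (22.0%; 16.0 to 29.1), so the 2 kinds did not exclude each other in a cell. Without thinning, the lower share with Klrg1 alone went mostly with more members holding both. The remaining 38 (29.7%) and 50 (29.8%) had neither. In total 19.5% (13.1 to 27.5) and 36.3% (29.0 to 44.1) of members held a UMI of Ccr7, Lef1 or Tcf7. Depth differs among these sets, since cells with both kinds had medians of 5501 and 4834 UMIs and cells with neither 2448.5 and 2931. At 2000 UMIs per cell (115 and 151 members) the expected shares were 12.5% and 23.8% with Ccr7, Lef1 or Tcf7 and 42.4% and 30.1% with Klrg1 only. At 1000 UMIs they were 7.92% and 14.0%, and 27.2% and 20%. Both kinds together had expected shares of 3.05% and 9.27% at 2000 UMIs and of 1.50% and 2.94% at 1000 UMIs. Ccr7, Lef1 or Tcf7 without Klrg1 had 9.42% and 14.5% at 2000 UMIs and 6.42% and 11.0% at 1000 UMIs. At 1000 UMIs the larger rise was thus in the set without Klrg1, not in the set with both. Any Klrg1 UMI had expected shares of 45.5% and 39.3% at 2000 UMIs and of 28.7% and 23.0% at 1000 UMIs. The order of the libraries was the same at each depth.

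**Figure D3:**
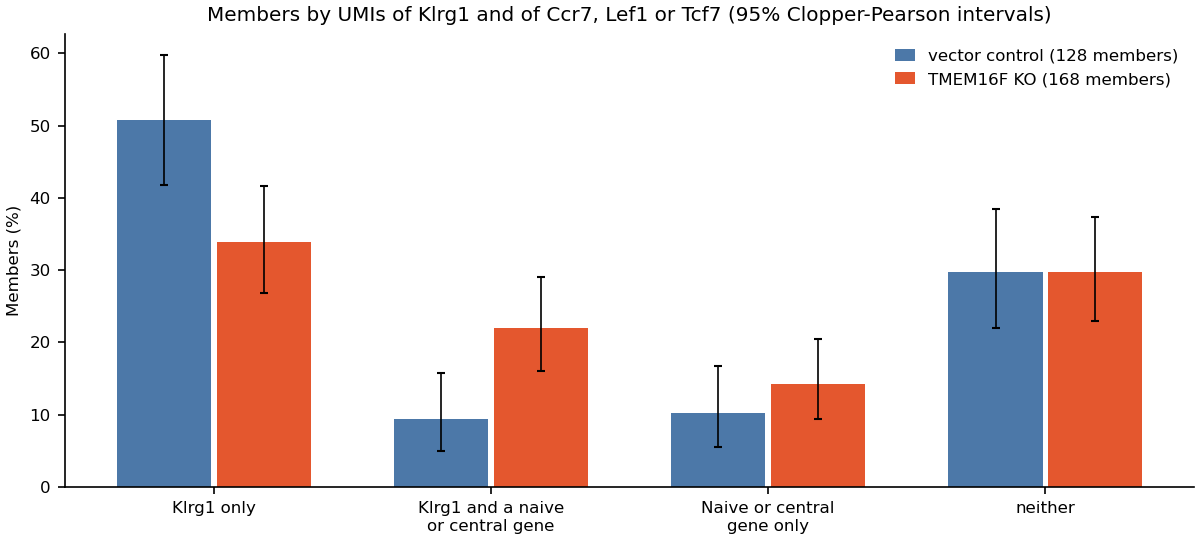
Share of members (vertical axis, percent) with a UMI of Klrg1 only, of Klrg1 and any of Ccr7, Lef1 and Tcf7, of the latter only, or of neither, in the vector control (blue, 128 members) and the TMEM16F KO library (orange, 168 members), with 95% Clopper-Pearson intervals and no thinning. Klrg1 without the other genes was seen in 50.8% and 33.9%, both kinds together in 9.38% and 22.0%.

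Within the vector control library, members with a Klrg1 UMI had Il10 at 246 CPM against 74.6 CPM in members without one, Penk at 634 against 168 CPM and Gzmb at 1308 against 746 CPM. In the TMEM16F KO library the split by Klrg1 gave Il10 at 168 against 207 CPM, Penk at 464 against 363 CPM and Gzmb at 1479 against 912 CPM. The difference in Il10 between members with and without Klrg1 was thus not present in the same direction in both libraries, whereas that in Gzmb was. Il10 sat in 29 and 50 members in all, with up to 32 and 24 UMIs in 1 cell.

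Suppressor effectors had a median log2 ratio of -0.03 over 17 measured genes, with 3 past 1.5-fold higher and 0 lower. Among all genes with at least 20 UMIs the shares were 10.2% and 9.83%. Il10 was at 188 and 183 CPM (0.976; 0.780 to 1.22). Among members with no CD8 and no phagocyte UMI, Il10 was at 135 and 229 CPM, a ratio of 1.70, past the 1.5-fold limit. Tgfb1 was at 209 and 177 CPM (0.846; 0.678 to 1.05). Cd274, the gene of PD-L1, was at 135 and 242 CPM (1.79; 1.42 to 2.28), and Fgl2, a secreted fibrinogen-like suppressor protein, at 80.7 and 131 CPM (1.63; 1.2 to 2.24). Prf1, perforin, was the third, at 35.3 and 54.0 CPM, with an interval of 0.948 to 2.52. Macrophage-type cells held Cd274 at 126.5 and 222.4 CPM and Fgl2 at 106.7 and 147.5 CPM, levels like those of the members, and their part in these ratios was not tested. Cd274 was past 1.5-fold in 10 of 13 settings, with 1.13 among members with at least 2 Foxp3 UMIs. Fgl2 was past it in 8, with 1.23 without barcodes of more than 20000 UMIs. Just inside the 1.5-fold limits lay Lag3 at 176 and 251 CPM (1.42; 1.15 to 1.77), Il1r2, the interleukin 1 decoy receptor, at 183 and 259 CPM (1.41; 1.15 to 1.75), and Entpd1 (CD39) at 98.3 and 65.7 CPM (0.668; 0.471 to 0.945). Gzmb was at 1118 and 1252 CPM (1.12; 1.03 to 1.22).

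Costimulatory receptors of the TNF receptor family were close to equal or somewhat higher. Tnfrsf4 (chromosome 4, 156013843 to 156016612, plus strand) was at 1755 and 2212 CPM (1.26; 1.18 to 1.35), and its ratio was above 1 in all 13 settings and never past 1.5-fold. Tnfrsf9, the gene of 4-1BB, was at 1381 and 1471 CPM and Icos at 763 and 827 CPM, with ratios of 1.06 and 1.08. The list's median log2 ratio was 0.10. Only Cd226, the activating counterpart of TIGIT, was past 1.5-fold, from 6 and 21 UMIs. As 1 of 10 measured genes, its share was near the 10.2% of all genes with at least 20 UMIs.

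In the interleukin 2 receptor pathway, Jak3, the kinase bound to the common gamma chain, was read as 34 and 17 UMIs, at 42.9 and 18.0 CPM (0.420; 0.22 to 0.774). It was past 1.5-fold lower in all 13 settings. It was the only 1 of 10 measured genes past that limit, a share near the 9.83% of all genes with at least 20 UMIs. Il2rb was at 262 and 322 CPM (1.23; 1.03 to 1.47) and Il2rg at 342 and 360 CPM. Cish, a feedback inhibitor induced by STAT5, was at 169 and 216 CPM (1.28; 1.02 to 1.60). Of the 17 measured genes of the T cell receptor complex and its first signalling steps, 0 were past 1.5-fold in either direction, with a median log2 ratio of 0.04. The 16 oxidative phosphorylation genes likewise had 0 past 1.5-fold, with a median of -0.01. In glycolysis 2 of 15 were past 1.5-fold lower, among them Eno1 at 541 and 359 CPM (0.664; 0.574 to 0.768). That share was near the 9.83% of all genes with at least 20 UMIs.

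Inhibitory receptors and the regulator Tox were mixed, with a median log2 ratio of 0.02. Pdcd1 (PD-1) was at 68.1 and 40.3 CPM (0.592; 0.38 to 0.913) and Tox at 145 and 98.5 CPM (0.680; 0.512 to 0.901). Of the 3 Nr4a factors, which T cell receptor signals induce, 2 were past 1.5-fold higher, with Nr4a3 at 61.8 and 101 CPM (1.63; 1.14 to 2.35) and Nr4a2 at 64.3 and 129 CPM (2.01; 1.44 to 2.85). Nr4a1, the most abundant in UMIs, was at 261 and 334 CPM (1.28; 1.07 to 1.53). The ratio of Nr4a2 was 0.933 among members with no CD8 and no phagocyte UMI. In the NF-kB and AP-1 list 2 of 18 genes were past 1.5-fold higher, Dusp2 (1.62; 1.39 to 1.90) and Fosb (1.59; 1.21 to 2.11), and 0 lower. The share higher was near the 10.2% of all genes with at least 20 UMIs.

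The HSP70 pair among the heat shock genes was lower in the TMEM16F KO members. Hspa1b (ENSMUSG00000090877; chromosome 17, 34956436 to 34959238, minus strand) was at 524 CPM in the vector control and 216 CPM in the TMEM16F KO members, a ratio of 0.412 (0.347 to 0.489). It was read in 64 of 128 members and in 34 of 168. Hspa1a (ENSMUSG00000091971; chromosome 17, 34969190 to 34972156, minus strand) was at 314 and 134 CPM (0.425; 0.341 to 0.529), in 53 and 33 members. Both encode the inducible chaperone HSP70 and are close copies of each other, so how the reads were split between them is uncertain. Both were past 1.5-fold lower in all 13 settings. At 1000 UMIs the expected share with Hspa1b was 27.7% and 9.8% of members.

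Lower values stood in the other classes too. Ratios of Hspa1b were 0.488 in conventional CD4 T cells and 0.466 in CD8 T cells, and macrophage-type cells held 246 and 102.5 CPM. Other chaperones of the list were closer to equal. Hspa8, the constitutive relative, was at a ratio of 0.968 (0.908 to 1.03) and Hspd1, of mitochondria, at 0.701 (0.584 to 0.841). The list's median log2 ratio was -0.35, with 3 of 12 genes past 1.5-fold lower and 1, Dnajb4 with 11 and 29 UMIs, past 1.5-fold higher. Among all genes with at least 20 UMIs 9.83% were past 1.5-fold lower and 10.2% higher.

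The 250 bases upstream of the annotated start of each HSP70 gene are printed because the pair moved together. They come from RefSeq, GRCm38.p6, as chr17:34972157-34972406 for Hspa1a and chr17:34959239-34959488 for Hspa1b, both on the minus strand and written 5′ to 3′. Capitals mark the match to GAANNTTC, a form of the heat shock element, which begins 104 bases before the start in both genes.
Hspa1a: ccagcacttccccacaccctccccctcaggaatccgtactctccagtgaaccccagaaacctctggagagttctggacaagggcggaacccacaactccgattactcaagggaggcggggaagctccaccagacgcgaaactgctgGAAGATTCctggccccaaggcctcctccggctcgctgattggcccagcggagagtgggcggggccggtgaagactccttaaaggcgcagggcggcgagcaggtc
Hspa1b: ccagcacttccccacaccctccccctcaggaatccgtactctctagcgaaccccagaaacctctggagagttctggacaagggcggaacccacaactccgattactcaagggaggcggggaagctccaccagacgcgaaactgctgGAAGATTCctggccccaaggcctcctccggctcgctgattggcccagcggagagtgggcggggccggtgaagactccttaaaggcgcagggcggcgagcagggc
The sequences differ at 3 of 250 positions (98.8% identity). GAANNTTC, which reads the same on both strands, was found in 6.69% of 32851 promoters in the RefSeq table and TTCNNGAA, the other arrangement of the same letters, in 7.17%, and 12.8% held either of them. The 9 heat shock genes with an entry had 13 promoters, and 7 of these genes held 1 or both motifs. That count is per gene whereas the 12.8% is per promoter, so they are not directly comparable. A match describes these letters and does not show binding.

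Genes that ranked highest in the TMEM16F KO members fell into sets that are not typical of regulatory T cells. Granzymes of the chromosome 14 cluster led, with Gzmf (56205263 to 56211417) at 10.1 and 1521 CPM, Gzmc at 40.3 and 808 CPM and Gzmd at 1.26 and 680 CPM, together with Gzmg, Gzme and, from another locus, Gzma. A single barcode of 32530 UMIs held 3737 of the 3933 UMIs (95%) of these 6 genes in the TMEM16F KO members. It had 2 UMIs of Foxp3, 4 of Cd3e, 17 of Ctla4, 1 of Ikzf2, 1 of Cd8a and 0 of Il2ra and Cd4. It also held 103 UMIs of Klrd1, along with 62 of Tyrobp and 650 of Spp1, which are genes of natural killer or myeloid cells. Klrd1 stood at 1227 and 1451 CPM in CD8 T cells and at 24.9 and 35.5 CPM in macrophage-type cells. Gzmf stood at 1608 and 2828 CPM in CD8 T cells. What kind of cell or cells this barcode held was not tested. Without each gene's highest cell in each library, Gzmf had a ratio of 2.73 from 6 and 19 UMIs, Gzmc 4.19 from 21 and 102 UMIs, and Gzme had 0 and 3 UMIs. Of these 102 UMIs of Gzmc, 80 sat in 1 other barcode of 16378 UMIs. The ratio of Gzmc was 1.46 without members with 5 or more granzyme UMIs. Gzma, which was read in 1 and 11 members, kept 0 and 60 UMIs without its highest cell in each library. With the 0 set at a floor of 3 UMIs its ratio was 17.2, and its interval began at 13.6. The near-identical coding sequences of this family also make the split of reads among its members uncertain. Members with 5 or more UMIs of these genes numbered 3 and 6.

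The second set holds genes of mononuclear phagocytes and interferon-induced membrane proteins. Spp1 (osteopontin) was at 227 and 1312 CPM, and at a ratio of 3.09 without the highest cell. Wfdc17 was at 32.8 and 234 CPM, Ccl8 at 52.9 and 331 CPM, Ifitm3 at 137 and 584 CPM and Ifitm1 at 39.1 and 380 CPM. A single TMEM16F KO cell held 202 of the 312 UMIs of Ccl8, whose ratio was 2.73 without the highest cell. In macrophage-type cells of the same libraries Spp1 was at 3214 and 6928 CPM, Wfdc17 at 447 and 922 CPM and Ifitm3 at 1213 and 1933 CPM, so these genes were higher there in the TMEM16F KO library as well. Klrd1, the CD94 chain of natural killer receptors, which was also read in CD8 T cells, was at 20.2 and 200 CPM in the members. Its ratio was 7.36 without the highest cell.

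The macrophage marker list as a whole moved with these genes. Its 12 genes summed to 1809 CPM in the vector control and 3814 CPM in the TMEM16F KO members, a ratio of 2.11 (1.98 to 2.24). All 9 measured genes were higher, 5 of them past 1.5-fold, and 0 of 12 were at 0. Per cell, the sum had a median of 13.2 UMIs per 10000 (0 to 233) and 28.2 (0 to 386). Lyz2 was at a ratio of 1.94 and C1qc at 1.01. The defining receptors that the rule limits were near 0, with Csf1r at 6 and 5, Adgre1 at 2 and 6 and Fcgr1 at 6 and 13 UMIs. The part of macrophage RNA in the ratios of other genes was not tested. The 8 natural killer markers, Gzma and Tyrobp among them, summed to 204 and 647 UMIs, at 257 and 686 CPM (2.67; 2.27 to 3.14). All 3 measured genes were past 1.5-fold higher, and 1 TMEM16F KO member held 203 of the UMIs. Of this list, Ncr1 and Klra8 were at 1 and 9 and at 0 and 9 UMIs. B cell and plasma cell markers Cd79a, Ms4a1, Pax5 and Mzb1 were at 0 in both libraries. The list of 7 such genes still summed to 214 and 282 UMIs, at 270 and 299 CPM (1.11; 0.924 to 1.33). It was at 0 in only 54 of 128 and 63 of 168 members. Gamma delta receptor genes were read in 0 vector control and 4 TMEM16F KO members.

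MHC class II genes, which present peptides on macrophages and dendritic cells, had a median log2 ratio of 0.84 over 7 measured genes, with 5 past 1.5-fold higher. H2-Aa was at 808 and 1514 CPM (1.87; 1.71 to 2.06) and Cd74 at 1935 and 2684 CPM (1.39; 1.30 to 1.48). Among members with no CD8 and no phagocyte UMI (104 and 133 cells) the list's median log2 ratio was -0.14, so that the direction was not kept there. Per cell, the list summed to a median of 19.7 and 21.6 UMIs per 10000, while single cells reached 372 and 561. Dendritic cell markers were higher as well. The 8 genes summed to 33 and 171 UMIs, at 41.6 and 181 CPM (4.36; 2.99 to 6.53), with 2 of 3 measured genes past 1.5-fold higher. They were at 0 in 113 of 128 and 144 of 168 members, and 1 TMEM16F KO member held 75 of the UMIs. Among defining markers, Cd209a had 0 and 78 UMIs, of which 73 were in 1 cell, Xcr1 3 and 4, Clec9a 2 and 6 and Zbtb46 13 and 15. Cd209a and Ccl22 were at 0 in the vector control, and none of the 8 was at 0 in the TMEM16F KO library. The part of dendritic cell RNA in these ratios was not tested. Interferon-stimulated genes had a median of 0.31, with 2 of 17 past 1.5-fold higher, near the 10.2% of all genes with at least 20 UMIs. Of these 2, Irf7 was at 42.9 and 89.0 CPM (2.08; 1.38 to 3.19).

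**Figure D4:**
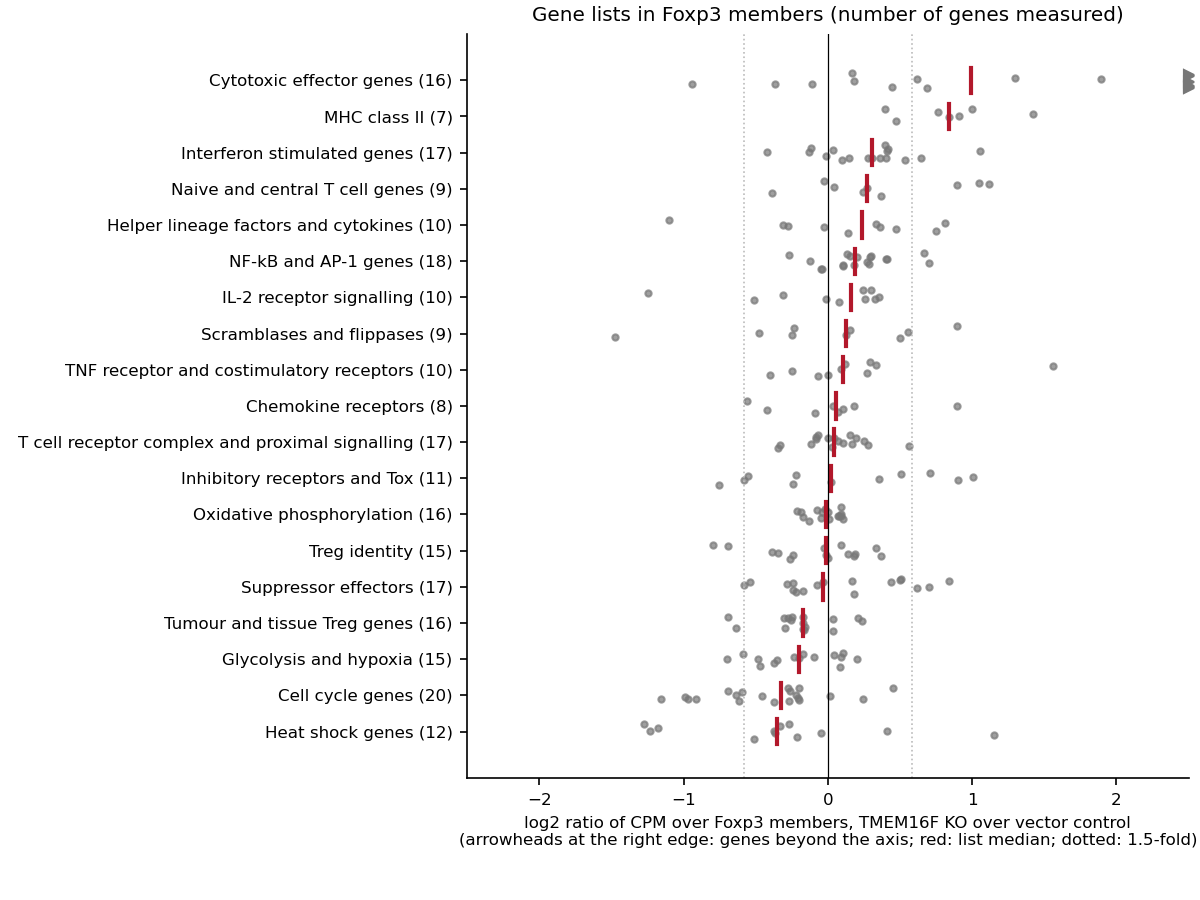
Log2 ratio of CPM over Foxp3 members, TMEM16F KO over vector control (horizontal axis), for the genes of each list with at least 20 UMIs (grey points), with the list median in red and dotted lines at 1.5-fold. Identity, oxidative phosphorylation and T cell receptor genes centre near 0, heat shock and cell cycle genes lie lower, and naive and central, MHC class II and cytotoxic genes lie higher.

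Cell cycle genes and histones were lower in the TMEM16F KO members. The list of 20 cell cycle genes had 8 past 1.5-fold lower and 0 higher, with a median log2 ratio of -0.33. Ube2c, a ubiquitin-conjugating enzyme of mitosis, was at 339 and 173 CPM (0.509; 0.417 to 0.621) and Top2a at 163 and 101 CPM (0.619; 0.470 to 0.813). Among histones, which S phase cells make, H2ac24 was at 364 and 97.5 CPM and H4c4 at 169 and 73.1 CPM. These genes sat in few cells, with UMIs of H2ac24 in 19 and 26 members, and without cycling members the ratios were 2.04 for H2ac24 and 0.814 for H4c4. Without barcodes of more than 20000 UMIs, of which there were 7 and 4 among members, the list's median was -0.04 and the ratio of Ube2c was 2.13. The list was lower in the other T cell classes too. With all barcodes its median log2 ratio was -2.07 in conventional CD4 T cells, with 19 of 20 genes past 1.5-fold lower. In CD8 T cells it was -0.46, with 5 of 20.

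Cycling members, defined by UMIs of at least 2 of 8 cycling markers, were 27.3% (19.8 to 35.9; 35 of 128) in the vector control and 23.2% (17.1 to 30.3; 39 of 168) in the TMEM16F KO library. At 1000 UMIs, in 1 draw, they were 11.7% and 9.5%. Cycling members were deep, with medians of 7968 and 7264 UMIs. They had lower levels of Foxp3 than members with no cycling marker (202 against 483 CPM, and 199 against 438 CPM) and of Ctla4 (924 against 1710 CPM, and 553 against 1407 CPM). Because the rule asks for at least 1 Foxp3 UMI, shallow cells enter only at a high Foxp3 level, so the level of Foxp3 depends on depth by construction. Without cycling members the cell cycle list's median was -0.07.

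Other genes that ranked lowest were Myo10, an unconventional myosin, at 131 and 54.0 CPM (0.412; 0.289 to 0.582), and Zeb1, a zinc finger repressor, at 197 and 97.5 CPM (0.496; 0.379 to 0.646). Both were past 1.5-fold lower in all 13 settings. In conventional CD4 T cells the ratios of Myo10 and Zeb1 were 1.76 and 2.31, and in CD8 T cells 1.42 and 1.57, so these values stood on the other side of 1 there, with no test of the difference. Ccl3, a chemokine, was at 285 and 148 CPM, and at 1.04 without cycling members. Csrp2, H2ac8, H1f5 and Ccnd1 completed the 12 lowest, and Ccnd1 had a ratio of 0.931 without the highest cell of each library.

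**Figure D5:**
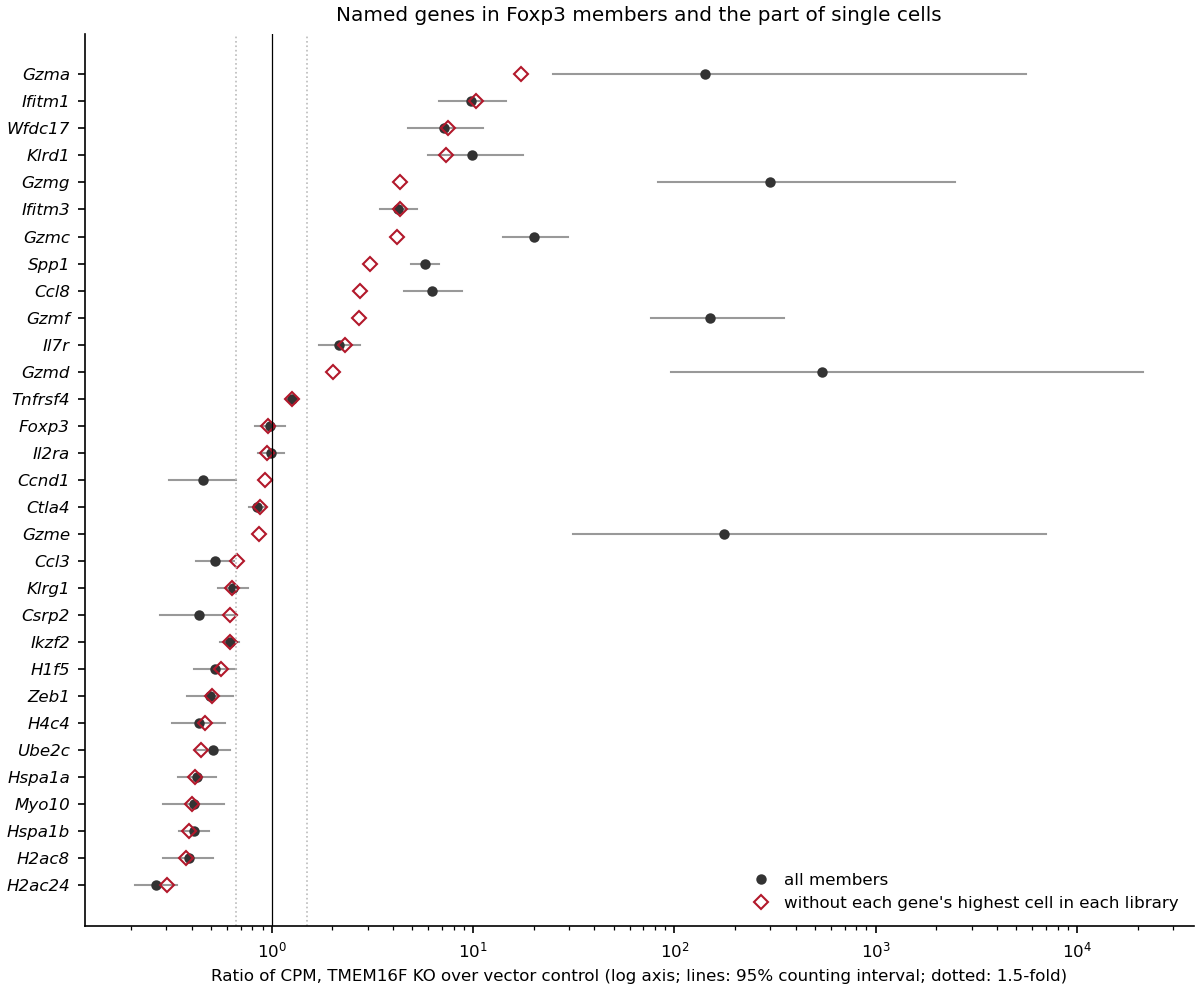
Ratio of CPM, TMEM16F KO over vector control, on a log axis for the 12 highest and 12 lowest genes and 7 reference genes in all members (filled, with the 95% counting interval) and without each gene's highest cell in each library (open; a library with 0 UMIs left was set at 3 UMIs). Granzymes shift far to the left without 1 cell, whereas Ikzf2, Klrg1, Il7r, Hspa1a and Hspa1b hardly move.

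Ano6 itself (ENSMUSG00000064210; chromosome 15, 95790843 to 95974751, plus strand) was read as 20 UMIs in the members of each library, at 25.2 and 21.2 CPM (0.841; 0.429 to 1.65). Reads at the 3′ end can count a transcript whose coding part is disrupted upstream, so these values check nothing about a deletion. Among 9 measured scramblase and flippase genes 1 was past 1.5-fold in each direction, with a median log2 ratio of 0.13. These shares were near the 10.2% higher and 9.83% lower of all genes with at least 20 UMIs.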

How the data were processed

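The authors deposited UMI counts per gene and barcode, with no normalization, and per the file headers the tool was Cell Ranger 8.0.0. The chemistry was the 10x Genomics 3' kit 3.1 per the labels' protocols, and mm10 and Seurat 3.1.1 are named in the submitters' processing notes. Neither the use made of Seurat nor the annotation is given in the sources used here. Of 34290 gene IDs, 32236 were found in GENCODE M21. Cells were not filtered beyond the member rule.

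UMIs were summed per class and library and scaled to CPM with Python 3.11.15, scanpy 1.11.5, numpy 2.4.6, scipy 1.17.1, pandas 2.3.3 and matplotlib 3.10.9. Ratios have exact conditional binomial intervals and shares Clopper-Pearson intervals, at 95%. Since UMIs of a gene can sit in few cells, these can be too narrow. Calculations were tested on simulated data. The members and lists were chosen with earlier results of these data known.

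Named genes were the 12 highest and 12 lowest between libraries by the interval bound nearest 1 with at least 100 UMIs, the 15 highest and 10 lowest against conventional CD4 T cells by the library with the ratio nearest 1, and each list's extremes or members needed to describe its role. Mitochondrial, ribosomal protein, haemoglobin, immunoglobulin, T cell receptor variable, Gm and Rik genes were left out. A few genes of the lists and of the named set are not reported here, and list summaries were computed without them.

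Doublets were not removed. Scrublet's automatic threshold marked 0 barcodes in either library and so did not work. Leaving out the highest scores at 0.8% per 1000 barcodes, an alternative, took 4 and 2 members. Libraries shared 10 barcode sequences, 0 of them members. The depth per library was 46338994 and 49777630 UMIs.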

Additional observations from a re-analysis of the deposited data

Results flagged for a closer look

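Foxp3 was also read outside the members, in barcodes with at least 2 CD8 UMIs, a CD3 UMI and at most 1 phagocyte UMI. In the vector control library 1.77% of these CD8 T cells (0.946 to 3.01; 13 of 734) held a Foxp3 UMI, and in the TMEM16F KO library 3.55% (2.48 to 4.90; 35 of 986). Macrophage-type cells, which are deeper, held one in 0.258% and 0.157%. The barcodes outside the members with 3 or more CD8 UMIs had Ikzf2 at 279 and 456 CPM.

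The median log2 ratio of the tumour and tissue regulatory T cell list was -0.18 in members and 0.23 in CD8 T cells, and that of the helper lineage and cytokine list was 0.24 in members and -0.12 in CD8 T cells. These values drew attention because they lie on opposite sides of 0 in the 2 classes. The difference was not tested.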

How the results depend on the processing

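With the lower minimum of 20 UMIs, 737 (10.2%) and 713 (9.83%) of 7250 genes were past 1.5-fold higher and lower. Members with at least 2 Foxp3 UMIs gave 64 genes higher and list medians (log2) of -0.32 for identity, 2.01 for cytotoxic, -0.54 for cell cycle, -0.0910 for heat shock and 1.39 for MHC class II genes, with Ccnd1 at a ratio of 1.10. Members without CD8 or phagocyte UMIs gave 63 genes higher, medians of 0.34 for suppressor effectors and -0.14 for MHC class II, and Nr4a2 at 0.933. The mean of the CPM per cell gave 95 genes lower, MHC class II at 0.27 and Ube2c at 1.10. Thinning to 1000 UMIs gave 20 genes higher and 10 lower, heat shock at -0.58, MHC class II at 0.17 and 10 genes each way against conventional CD4 T cells. Without cycling members the cell cycle median was -0.066, with H2ac24 at 2.04 from 4 and 13 UMIs, Ube2c at 2.19, Ccl3 at 1.04 and Ccnd1 at 1.36. The next 3 alternatives were chosen after seeing the data. Without each gene's highest cell MHC class II was at 1.04 and Gzme at 0.861. Without members with 5 or more granzyme UMIs they were at 1.02 and 0.939. Without barcodes of more than 20000 UMIs identity was at -0.26, naive and central genes at 0.56, cytotoxic at 0.15, cell cycle at -0.0377, Ube2c at 2.13 and Ccnd1 at 1.07. Thinning and the smaller sets of cells leave fewer UMIs per gene, and so fewer genes with at least 100 UMIs, by construction. Their gene counts therefore cannot be set against the 100 and 60 of 2698 genes of the main setting. For the other moves the cause was not tested. The share of members among T cells had a ratio of 0.972 to 1.04 in all alternatives. No paired analysis was possible because each group has 1 library. Limits are the 128 and 168 members, the single library per group and the many genes with under 100 UMIs, whose ratios have wide counting intervals.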

Other observations

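Chemokine receptors of the members were close to equal between the libraries, apart from Ccr7. The list had a median log2 ratio of 0.05 over 8 measured genes, with 1 past 1.5-fold higher and 0 lower. The share higher was near the 10.2% of all genes with at least 20 UMIs. Ccr2, which guides cells along monocyte chemokines, was at 222 CPM in the vector control and 209 CPM in the TMEM16F KO members (0.941; 0.764 to 1.16). Cxcr6 was at 98.3 and 111 CPM and Cxcr3, a receptor of interferon-induced chemokines, at 78.1 and 58.3 CPM, each with an interval that includes 1.

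Helper lineage factors were read in the members too. Maf, a factor that promotes Il10, was at 562 and 454 CPM (0.807; 0.705 to 0.923), Gata3 at 202 and 166 CPM and Tbx21 (T-bet) at 65.5 and 72.1 CPM. Xcl1, a chemokine that attracts dendritic cells, was at 73.1 and 128 CPM (1.75; 1.27 to 2.44), and Ahr at 29.0 and 48.7 CPM (1.68; 0.998 to 2.91). The 1 vector control cell with Il17a held 3 UMIs, and 3 TMEM16F KO cells held 11. Of the 10 measured genes, 2 were past 1.5-fold higher and 1 past 1.5-fold lower. Among all genes with at least 20 UMIs the shares were 10.2% and 9.83%. Xcl1 sat in 7 vector control members.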
